A study of Mus musculus with 8 samples.

Results

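Map1a, Map1b, Map2, Mapt, Map4, Map6 and Ddn are 7 genes of the neuronal microtubule system and of the dendrite, out of 55401 genes in the deposited count table. They were chosen by name, and all 7 were found in the table. Libraries were made by RNA immunoprecipitation (RIP), in which an antibody recovers a protein from a lysate together with RNA, from C57BL/6 mouse tissue labelled hippocampus. The 8 libraries were 3 from RIP with titles that name Camk2b, 3 from RIP with IgG as the control antibody, and 2 of Input, the RNA of the starting material. Camk2b encodes CaMKIIβ, a subunit of an abundant calcium-dependent kinase of neurons. The labels name no genetic change or treatment, and they give neither the age of the mice nor whether animals were pooled or shared between libraries. All p-values therefore measure the spread between these libraries, which may be technical.

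Microtubules are polymers of tubulin that form the tracks of axons and dendrites, and microtubule-associated proteins bind, space and stabilise them. MAP1A and MAP1B are large related proteins, each cut into a heavy and a light chain. MAP1B is known for growing axons, and MAP1A for mature neurons and their dendrites. MAP2, tau (encoded by Mapt) and MAP4 share a microtubule-binding repeat region. MAP2 is the classical marker of dendrites and tau that of axons, while MAP4 is found in many cell types outside the nervous system too. MAP6, also called STOP, makes neuronal microtubules resistant to cold. Dendrin, encoded by Ddn, is a protein of dendrites and the postsynaptic density and is not a classical microtubule-binding protein. The mRNAs of Map2 and Ddn are known to travel into dendrites.

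The libraries held between 17273957 and 28138289 counts. CaMKIIβ RIP replicate 2 stood apart, with at least 1 count for 19247 genes against 24865 to 31152 in the other 7 libraries, so values that change most without it are given both ways. In CPM (library-size normalised counts, here not scaled to gene length), 7 of 7 markers of cerebellar granule cells were each at 152 CPM or more in every library, and they summed to 3045 to 3089 CPM in Input. The 7 of 7 markers chosen for hippocampal neurons summed to 266 to 275 CPM in Input and ranged from Spink8, at most 2.66 CPM, to Prox1, at 88.3 to 142 CPM. Markers of both regions were thus present in libraries labelled hippocampus. In bulk tissue, fewer cells of a type cannot be told apart from less RNA per cell. CPM were scaled by TMM over all 8 libraries together, and they do not show how much RNA an antibody recovered in total.

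On GRCm38, Map1a lies on the plus strand at chr2:121289600-121310832, with 12166 exon bases in 8 exon blocks, of which the largest block holds 66.6%. Map1b lies on the minus strand at chr13:99421446-99516540, with 15846 exon bases in 10 blocks. Map2 spans chr1:66175273-66442583 on the plus strand, with 16456 exon bases in 24 blocks. Map4 spans chr9:109931460-110083955 on the plus strand, with 15143 exon bases in 23 blocks. Mapt is at chr11:104231390-104332090 on the plus strand, with 7531 exon bases in 16 blocks. Map6 is at chr7:99267447-99337137 on the plus strand, with 9152 exon bases in 5 blocks. Ddn is the shortest, at chr15:98803777-98809490 on the minus strand, with 3781 exon bases in 3 blocks and 90.6% of them in the largest block. Exon bases are the union of all annotated isoforms, so isoforms of Map2 or Mapt were not told apart. The exons of 3 of the 7 genes overlap a gene on the opposite strand: 272 bases of Map1a with Ppip5k1, 124 bases of Map2 and 177 bases of Ddn with unnamed genes. Whether counting used strand is not given in the sources used here, so reads in these bases cannot be assigned to a strand. The partner of Ddn had at most 26 counts in a library and that of Map2 at most 138, while Ppip5k1 had 3801 to 6674.

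All 7 genes were read deeply, from Map6 at 1780 to 4517 counts per library to Map1a at 26823 to 81740. Of the MAP1 pair, Map1a stood at 2900.4, 2541 and 2910.4 CPM in CaMKIIβ RIP replicates 1, 2 and 3, at 2739.6, 2636.4 and 3058.9 CPM in IgG RIP, and at 1386 and 1332 CPM in Input. Every RIP library was thus above both Input libraries, and the antibodies overlapped. Map1b stood at 2139.5, 1594 and 1988 CPM in CaMKIIβ RIP, at 2236, 2108 and 2409 CPM in IgG RIP, and at 1521 and 1476 CPM in Input. CaMKIIβ RIP replicate 2 lay near Input for this gene, and the other 5 RIP libraries lay well above it.

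In the MAP2, tau and MAP4 family, Map2 stood at 1581, 1328 and 1563 CPM in CaMKIIβ RIP, at 1664, 1611 and 1537 CPM in IgG RIP, and at 1232 and 1177 CPM in Input. Mapt stood at 651, 482 and 791 CPM in CaMKIIβ RIP, at 603, 586 and 660.3 CPM in IgG RIP, and at 420.4 and 420.9 CPM in Input. Mapt had a coefficient of variation of 24.1% among the CaMKIIβ RIP libraries, against 5.04% to 14.8% for the other 6 genes. It was 13.7% without CaMKIIβ RIP replicate 2, next to 14.03% for Map6. Map4 stood at 942, 786 and 984 CPM in CaMKIIβ RIP, at 922, 879 and 913 CPM in IgG RIP, and at 693 and 654 CPM in Input. All 3 genes had their lowest RIP value in CaMKIIβ RIP replicate 2, and that value was still above both Input libraries.

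Map6 had the lowest CPM of the 7 genes, at 168, 175 and 138 CPM in CaMKIIβ RIP, at 155, 142 and 169 CPM in IgG RIP, and at 92.0 and 84.6 CPM in Input. Unlike the other 6 genes, it had its highest value of the CaMKIIβ RIP group in replicate 2. Ddn stood at 787, 713 and 737 CPM in CaMKIIβ RIP, at 700.6, 697 and 774 CPM in IgG RIP, and at 349 and 327 CPM in Input. Its RIP values lay close together, and all of them were far above Input.

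**Figure D1:**
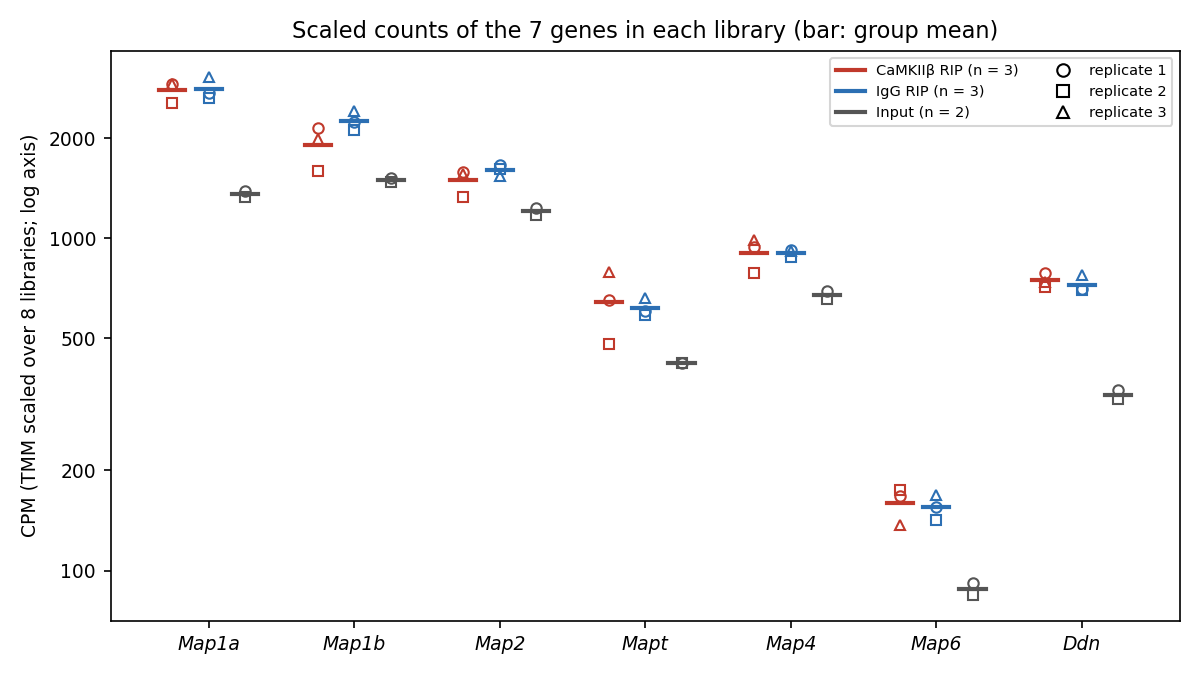
CPM of the 7 genes (y axis, log scale) in each of the 8 libraries, with a symbol for each replicate number and a bar for each group mean. For every gene the 6 RIP libraries sit above the 2 Input libraries, and CaMKIIβ RIP replicate 2 (square) is the lowest of its group except for Map6.

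To compare the levels of the 7 genes with each other, CPM were divided by kilobases of exon. In Input, Map1a had the highest level, at 111.7 ± 3.12 CPM per kilobase (SD, n = 2), followed by Map1b at 94.5 ± 2.0, Ddn at 89.4 ± 4.05, Map2 at 73.2 ± 2.35, Mapt at 55.9 ± 0.04, Map4 at 44.5 ± 1.82 and Map6 at 9.65 ± 0.57 CPM per kilobase. No neighbours in this order overlapped between their libraries. In IgG RIP, Ddn stood ahead of Map1b: Map1a was at 231 ± 18.1 CPM per kilobase (SD, n = 3), Ddn at 191 ± 11.5, Map1b at 142 ± 9.52, Map2 at 97.5 ± 3.88, Mapt at 81.9 ± 5.15, Map4 at 59.7 ± 1.5 and Map6 at 17.0 ± 1.47, again with no overlap between neighbours. The order was the same in CaMKIIβ RIP, from Map1a at 229 ± 17.3 and Ddn at 197 ± 9.93 to Map6 at 17.5 ± 2.18 CPM per kilobase. There, Mapt at 85.1 ± 20.5 overlapped both Map2 at 90.6 ± 8.59 and Map4 at 59.7 ± 6.87 CPM per kilobase. Because the length counts the exons of all isoforms, levels of genes with many isoforms, such as Map2 and Map4, are understated by this scale.

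IgG RIP against Input measures which RNAs the control antibody procedure left at a higher scaled level than the starting lysate. All 7 genes were higher in IgG RIP, with the highest estimates for Ddn, Map1a and Map6. Over all 22342 genes tested, 20.1% were called higher and 18.7% lower, and 26.8% had every IgG RIP library above both Input libraries. Ddn rose 2.22-fold, by 1.15 ± 0.07 on the log2 scale (SE; 95% interval 1.01 to 1.29; edgeR adjusted p = 1.51e-09), and 2.82% of genes tested had a larger log2 fold change. Map1a rose 2.15-fold, by 1.10 ± 0.07 (0.96 to 1.24; adjusted p = 2.5e-09), with 3.33% of genes above it. Map6 rose 1.83-fold, by 0.87 ± 0.08 (adjusted p = 2.38e-07), with 6.74% of genes above it.

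The estimates of the remaining 4 genes were lower, and the intervals of Map1b (0.51 to 0.78) and Mapt (0.47 to 0.74) overlapped that of Map6 (0.70 to 1.04). Map1b rose 1.56-fold (log2 0.64 ± 0.06, adjusted p = 4.62e-07) and Mapt 1.52-fold (log2 0.61 ± 0.06, adjusted p = 1.04e-06). Map4 rose 1.40-fold (log2 0.48 ± 0.06, adjusted p = 5.14e-06) and Map2 1.38-fold (log2 0.47 ± 0.06, 95% interval 0.34 to 0.59, adjusted p = 6.99e-06). For Map2, 21.1% of all genes tested had a larger log2 fold change, so its rise was not unusual in size. The median over the 7 genes was 0.64, against -0.02 over all genes tested. Scaling to library size alone lowered the median of all genes by 0.23, and the log2 fold changes of the 7 genes then ranged from 0.24 to 0.93 and were all still called. With that scaling the share of higher calls among all called genes fell from 51.8% to 30.0%.

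CaMKIIβ RIP against Input asks the same of the CaMKIIβ antibody, and it shares the Input libraries with the comparison above. Ddn, Map1a and Map6 were higher in CaMKIIβ RIP, while the other 4 genes did not pass the threshold. Over all 22095 genes tested, 5.06% were called higher and 3.4% lower. Ddn rose 2.21-fold, by 1.14 ± 0.10 on the log2 scale (SE; 95% interval 0.90 to 1.39; edgeR adjusted p = 0.00407). Map1a rose 2.05-fold, by 1.04 ± 0.10 (0.80 to 1.28; adjusted p = 0.00487), and Map6 rose 1.82-fold, by 0.86 ± 0.14 (0.53 to 1.20; adjusted p = 0.0161). Mapt had a log2 fold change of 0.61 ± 0.20 (adjusted p = 0.108), Map4 one of 0.43 ± 0.12 (adjusted p = 0.0784), Map1b one of 0.35 ± 0.14 (adjusted p = 0.175) and Map2 one of 0.31 ± 0.11 (adjusted p = 0.145). All 7 genes had every CaMKIIβ RIP library above both Input libraries, which held for 18.8% of all genes tested. The median over the 7 genes was 0.61, against -0.12 over all genes.

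How many of the 7 genes passed rested on single libraries. Without CaMKIIβ RIP replicate 2 all 7 were called, with Ddn at 1.24, Map1a at 1.16, Map6 at 0.86, Mapt at 0.84, Map4 at 0.58, Map1b at 0.53 and Map2 at 0.45 on the log2 scale, and adjusted p from 0.00223 to 0.0145. Calls over all genes tested rose in that fit too, to 11.3% higher and 7.39% lower, so the higher count is no result about the 7 genes. Without CaMKIIβ RIP replicate 1 no gene in the table was called, although Ddn (1.14, adjusted p = 0.0709), Map1a (1.04, adjusted p = 0.0765) and Map6 (0.86, adjusted p = 0.0899) kept their fold changes, and 4607 genes had an unadjusted p under 0.05. Without Input replicate 2, Map6 fell short (0.79, adjusted p = 0.101), which left Ddn and Map1a. Scaling to library size alone lowered the median of all genes by 0.17 in this comparison and the share of higher calls among called genes from 59.8% to 33.4%, and removal of a trend on exon length raised that share to 80.7%. The same 3 genes were called with library size alone, and Mapt joined them with the length trend removed (0.71, adjusted p = 0.0425). Removal of that trend also raised the median of all genes by 0.35, from -0.12 to 0.23, while Mapt went from 0.61 to 0.71. The added call is thus no result about Mapt alone.

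CaMKIIβ RIP against IgG RIP is the comparison that the series title points to, since it asks what the CaMKIIβ antibody recovered beyond control IgG. None of the 7 genes differed by the test, and for all 7 the libraries of the antibodies overlapped. edgeR called 0.0% of 20566 genes in either direction, and 721 of them had an unadjusted p under 0.05. DESeq2 and limma-voom called 0 genes too, with 1247 and 777 at an unadjusted p under 0.05. Among the 7 genes, such a p was reached by 0 genes with edgeR, 0 with DESeq2 and 1 with limma-voom, which was Map1b. Over all genes, the libraries of the antibodies did not overlap for 11.9%.

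Each difference is given with its interval. Map1a had a log2 difference of -0.00 ± 0.09 (SE; 95% interval -0.20 to 0.19), Ddn one of 0.06 ± 0.08 (-0.13 to 0.24) and Map2 one of -0.09 ± 0.09 (-0.29 to 0.10). Map4 differed by 0.01 ± 0.10 (-0.20 to 0.23), Map6 by 0.05 ± 0.12 (-0.21 to 0.32) and Mapt by 0.07 ± 0.15 (-0.28 to 0.41). Map1b differed by -0.23 ± 0.11 (-0.47 to 0.02), with the lower mean in CaMKIIβ RIP. Adjusted p ranged from 0.982 to 0.999 over the 7 genes. Several of these estimates rested on single libraries. Without CaMKIIβ RIP replicate 2, Map1b was at -0.12 (-0.29 to 0.06) and Mapt at 0.23 (0.03 to 0.44; adjusted p = 0.837), while Map1a was at 0.06, Ddn at 0.08, Map2 at -0.02, Map4 at 0.10 and Map6 at -0.02. With replicate 3 of that group left out instead, Mapt was at -0.12 (-0.41 to 0.18), Map4 at -0.06 and Map6 at 0.15. The sign of the difference for Map1a, Map4, Map6 and Mapt thus turned with the libraries included.

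**Figure D2:**
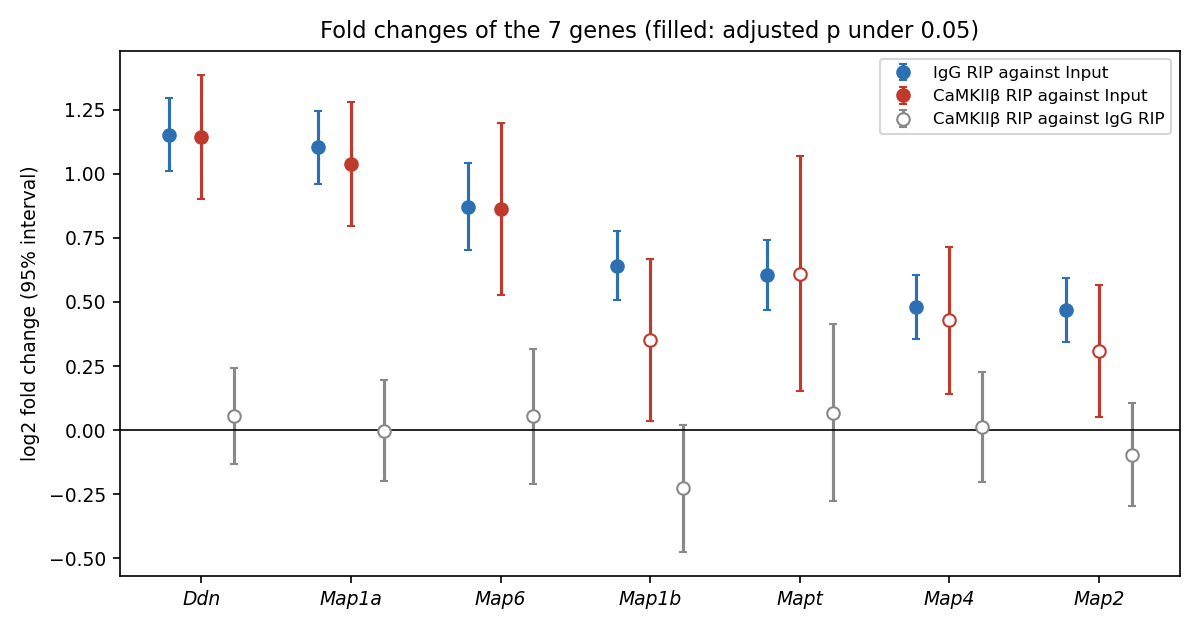
log2 fold changes (y axis) of the 7 genes (x axis) in the 3 comparisons, with 95% intervals; filled points have an edgeR adjusted p under 0.05. Ddn, Map1a and Map6 lie highest against Input with both antibodies, and every interval of CaMKIIβ RIP against IgG RIP with all 6 libraries includes 0.

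Ratios between members within a library do not depend on the scaling factor, and only their change between libraries is read here, since the count ratio itself holds the lengths of both genes. The mean log2 ratio over the 6 RIP libraries was compared with that over the 2 Input libraries by a two-sided exact permutation test for 7 ratios. The smallest p this design allows is 0.0357. Map1a had a higher ratio to its relative Map1b in the RIP libraries. The count ratio of Map1a to Map1b was 1.36, 1.59 and 1.46 in CaMKIIβ RIP, 1.23, 1.25 and 1.27 in IgG RIP, and 0.912 and 0.903 in Input. Every RIP library was above both Input libraries, by 0.58 on the log2 scale on average (exact p = 0.0357, adjusted p = 0.0833). The CaMKIIβ RIP libraries also lay above the IgG RIP libraries in this ratio, a difference that was seen in the values and was not tested.

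Ddn had a higher ratio to Map2 in the RIP libraries, and the mRNAs of both are known from dendrites. The count ratio of Ddn to Map2 was 0.498, 0.537 and 0.472 in CaMKIIβ RIP, 0.421, 0.433 and 0.503 in IgG RIP, and 0.283 and 0.278 in Input. All 6 RIP libraries were above Input, by 0.76 on the log2 scale (exact p = 0.0357, adjusted p = 0.0833). Map1a to Map2 differed by 0.68, also above Input in 6 of 6 RIP libraries (exact p = 0.0357, adjusted p = 0.0833). These 3 ratios had the smallest p possible, and none of the 7 passed 0.05 after adjustment.

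Within the MAP2, tau and MAP4 family the mean ratios of the RIP groups lay closer to Input. The ratio of Map2 to Mapt, the dendritic against the axonal marker, was 2.43, 2.76 and 1.98 in CaMKIIβ RIP, 2.76, 2.75 and 2.33 in IgG RIP, and 2.93 and 2.798 in Input. It lay below Input in 6 of 6 RIP libraries, by -0.21 on the log2 scale, a difference that did not pass the test (exact p = 0.107, adjusted p = 0.188). Mapt to Map4 differed by 0.14 (exact p = 0.214, adjusted p = 0.3) and Map2 to Map4 by -0.07 (exact p = 0.321, adjusted p = 0.321). Map6 to Mapt had a mean difference of 0.27 (exact p = 0.321, adjusted p = 0.321), and CaMKIIβ RIP replicates 2 and 3 lay at opposite ends of it, at count ratios of 0.364 and 0.174 against 0.219 and 0.201 in Input.

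**Figure D3:**
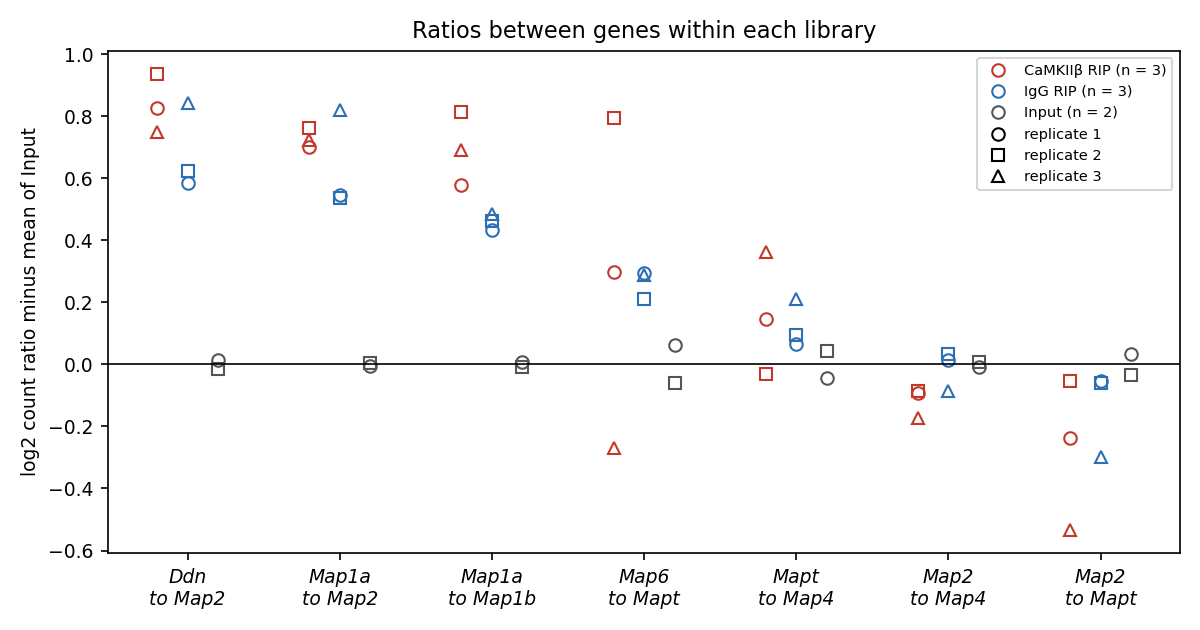
log2 count ratio of each gene pair in each library minus the mean of the 2 Input libraries (y axis), for 7 pairs (x axis). Ddn to Map2, Map1a to Map2 and Map1a to Map1b lie above Input in all 6 RIP libraries. The pairs within the MAP2, tau and MAP4 family have RIP group means nearer to 0, though not every single library does.

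Across the 8 libraries, the 7 genes did not follow each other equally. The distance used was the root mean square difference of log2 CPM after each gene was centred on its mean, over the 10191 genes whose average log2 CPM reached 3. Among the members, Map1a and Ddn were nearest to each other, at a distance of 0.060, and Map2 and Map4 were nearest to each other, at 0.067. Map6 had no near partner among them, with Ddn at 0.163, and Mapt was 0.125 from Map4. Map1b was 0.111 from Map2. All these distances rest on the same 8 libraries and are given without a test.

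The genes of the whole table nearest to Map1a were Srcin1 (0.045), which encodes a synaptic regulator of Src kinase, Ace (0.046), which encodes angiotensin-converting enzyme, and Prrc2b (0.050). Nearest to Ddn were Ptprf (0.051), which encodes a receptor tyrosine phosphatase, Myo18a (0.053), which encodes an unconventional myosin, and Pdgfrb (0.053), which encodes a growth factor receptor of pericytes. Nearest to Map1b were Zfp827 (0.027), Tuba1a (0.042), which encodes an alpha-tubulin of neurons, and Sesn2 (0.044). For Map2 they were Trappc11 (0.039), Mta2 (0.045) and Zscan25 (0.046), and for Map4 they were Asxl1 (0.035), Helz (0.036) and Rfx1 (0.036). Map6 lay nearest to Ptprs (0.044), a receptor tyrosine phosphatase gene, Tanc1 (0.048), which encodes a postsynaptic scaffold, and Mllt1 (0.051). Mapt lay nearest to Larp1 (0.059) and Fxr2 (0.062), which encode RNA-binding proteins, and to Pcdh17 (0.060).

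Lists of related genes are read against the whole table. With library size alone, 12.1% of all genes were called higher and 28.4% lower in IgG RIP against Input, with a median log2 of -0.25, and 3.09% higher and 6.16% lower in CaMKIIβ RIP against Input. Without CaMKIIβ RIP replicate 2, calls over the whole table rose to 11.3% higher and 7.39% lower, so a higher count in a list without that library is no result about the list. Other microtubule-associated proteins did not move as a group in IgG RIP against Input: of 15 tested, 6 were higher and 6 lower, with a median log2 of -0.14. Mtcl1, a microtubule crosslinking factor (0.84), and Map1s, a short relative of Map1a and Map1b (0.81), were the highest, and Map1lc3a, an autophagy protein first found with the MAP1 complex (-0.61), and Map9 (-0.58) the lowest. Against Input, CaMKIIβ RIP had 3 higher and 0 lower, among them Map1s (0.84) and Mtcl1 (0.82). Without CaMKIIβ RIP replicate 2 the count was 3 higher and 2 lower, and it was the same with library size alone.

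Tubulins, the subunits of the polymer itself, were higher in IgG RIP for 11 of 14 and lower for 0, with a median log2 of 0.42. Tuba8 (0.77) and Tuba1b (0.74) were the highest. With the CaMKIIβ antibody, Tubb2b (0.68, adjusted p = 0.0299) and Tubb5 (0.51, adjusted p = 0.0475) were higher than Input, out of 14, and the median was 0.34. With library size alone these counts fell to 6 of 14 in IgG RIP and 0 of 14 in CaMKIIβ RIP. The count was 4 tubulins without CaMKIIβ RIP replicate 2.

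Genes of microtubule ends, severing and disassembly split in IgG RIP, with 8 of 20 higher and 6 lower and a median log2 of 0.06. Clip2, a plus-end protein (1.02), and Camsap3, a minus-end protein (0.94), rose, and Katna1 (-0.72) and Spast (-0.66), which encode microtubule-severing enzymes, fell. With library size alone the median was -0.17, with 5 higher and 9 lower, where the median of all genes was -0.25. In CaMKIIβ RIP 3 were higher than in Input, among them Clip2 (0.99) and Camsap1 (0.80), and 0 lower. There, 2 were higher and 3 lower with library size alone, and 6 were higher without CaMKIIβ RIP replicate 2.

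Tubulin modifying enzymes were higher for 8 of 13 and lower for 1 in IgG RIP, with a median log2 of 0.44. Vash1, a tubulin detyrosinase (1.23), and Hdac6, a tubulin deacetylase (0.87), led, and Ttll7, a polyglutamylase (-0.44), was lower. Vash1 (1.10) was also higher and Ttll7 (-0.51) lower in CaMKIIβ RIP against Input. Without CaMKIIβ RIP replicate 2, 2 were higher and 1 lower, and with library size alone 4 were higher and 2 lower in IgG RIP.

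Kinases and phosphatases that act on tau and MAP2 were higher for 8 of 14 and lower for 3 in IgG RIP, with a median log2 of 0.26. Ttbk1, tau tubulin kinase (0.82), and Mark4, a microtubule affinity-regulating kinase (0.60), were the highest. Ppp2ca (-0.67) and Ppp2r2a (-0.60), subunits of protein phosphatase 2A, which removes phosphate from tau, were the lowest. In CaMKIIβ RIP against Input Ttbk1 (0.89) and Mark2 (0.51) were higher and Ppp2ca (-0.67) lower, and without CaMKIIβ RIP replicate 2 the count was 6 higher and 1 lower. With library size alone 5 were higher and 3 lower in IgG RIP.

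The axonal and the dendritic list had different medians, and their difference was not tested. Genes of the axonal cytoskeleton and of axon growth were higher for 8 of 11 and lower for 0 in IgG RIP, with a median log2 of 0.31, and for 4 and 1 with library size alone, with a median of 0.08. Ank3 (0.96) and Sptbn4 (0.82), which build the axon initial segment, were the highest of these and the 2 called in CaMKIIβ RIP against Input (0.72 and 0.71). Genes of dendritic and postsynaptic mRNAs were higher for 11 of 12 and lower for 0 in IgG RIP, with a median of 1.05, and the counts were the same with library size alone, at a median of 0.82. Ppp1r9b, encoding spinophilin (1.43), and Itpr1, encoding the inositol trisphosphate receptor of Purkinje cells (1.36), led that list. In CaMKIIβ RIP against Input 8 of 12 were higher, with a median of 0.96, and 11 of 12 without replicate 2. Ddn at 1.15 and Map1a at 1.10 in IgG RIP lay near the median of the dendritic list. Map6 (0.87), Map1b (0.64), Mapt (0.61), Map4 (0.48) and Map2 (0.47) all lay between the medians of both lists. In CaMKIIβ RIP against IgG RIP 0 genes of any of these 7 lists were called by edgeR, where 0 genes of the table were. Genes with the smallest p in each list had log2 differences of 0.97 (Map1lc3a) and -0.21 (Tppp), -0.21 (Tuba1a) and -0.27 (Tuba1b), -0.21 (Clip1) and 0.23 (Spast), 1.06 (Agbl4) and -0.26 (Agtpbp1), 0.40 (Cdk5r1, an activator of the tau kinase CDK5) and 0.13 (Ttbk1), -0.18 (Ank3) and 0.19 (Nefh), and 0.17 (Dlgap3), all with an adjusted p of 0.982. The largest of these, Map1lc3a and Agbl4, had a wide spread in CaMKIIβ RIP, and Agbl4 also had a low level. Map1lc3a was at 45.0 ± 24.5 CPM (SD) there and 23.1 ± 3.61 in IgG RIP, and Agbl4 at 10.7 ± 6.82 and 5.17 ± 0.60 CPM. Of the listed genes, Atat1, Cdk5, Ttbk2 and Nefm had no match by symbol and were not analysed here.

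**Figure D4:**
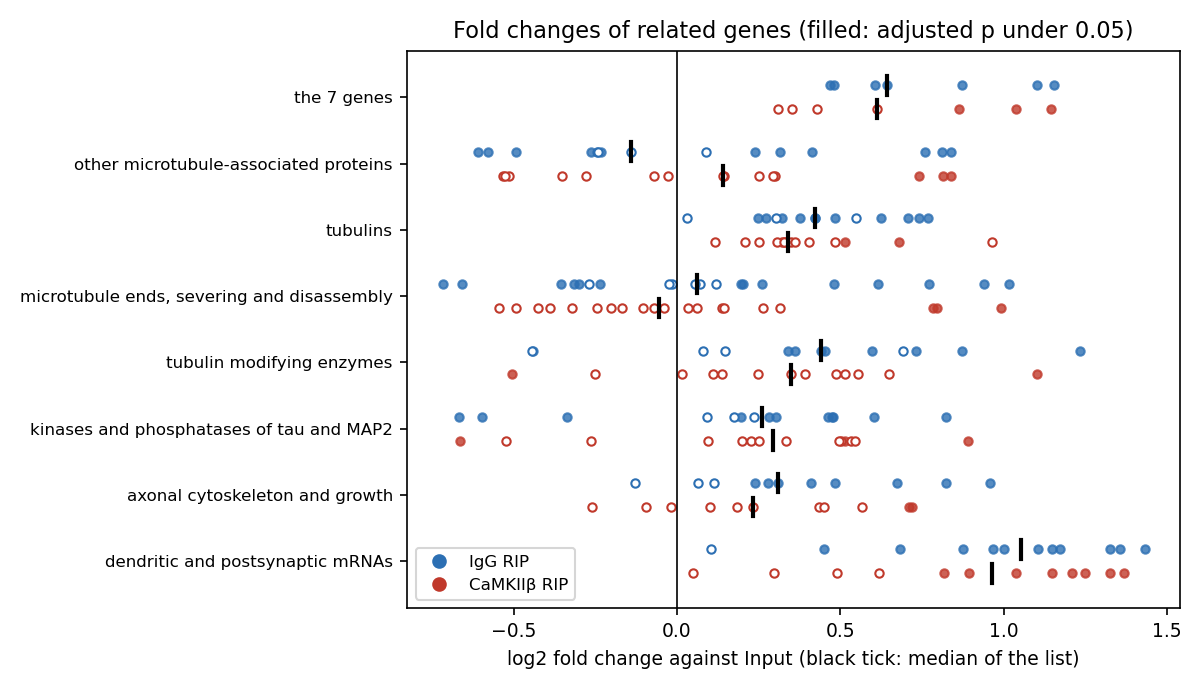
log2 fold change against Input (x axis) for the 7 genes and 7 lists of related genes, with IgG RIP in blue and CaMKIIβ RIP in red; filled points have an edgeR adjusted p under 0.05 and black ticks are medians. The dendritic and postsynaptic list has the highest medians, at 1.05 and 0.96, and the other microtubule-associated proteins spread on both sides of 0.

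Gene length moved with these comparisons. Of the 9438 genes whose exon length lay within the range of the 7 members, 32.4% were higher and 22.5% lower in IgG RIP against Input, against 10.2% and 15.6% of the 12600 genes shorter than Ddn. In CaMKIIβ RIP against Input the shares were 9.46% and 5.80% of 9406 genes within the range, and 1.32% and 1.43% of 12386 shorter genes. Among the 7 members, Ddn, the shortest, had the highest fold change against Input with both antibodies, and Map2, the longest, the lowest. The part of exon length in the fold changes of the 7 genes was not tested. With the trend on exon length removed, all 7 genes were still called in IgG RIP against Input, where the median of all genes rose by 0.10.

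Markers of other cell types moved with the RIP libraries as well. Over 5 of 6 astrocyte markers, the sum was 3977 to 4069 CPM in Input, 8683 to 9945 CPM in IgG RIP and 7844 to 9246 CPM in CaMKIIβ RIP. Over 6 of 6 oligodendrocyte markers it was 5710.4 to 5729 CPM in Input, 9396 to 10003 CPM in IgG RIP and 9903 to 10279 CPM in CaMKIIβ RIP. Markers within a list did not move together: Mbp lay at 1712 to 1805 CPM in Input and 5262 to 6391 CPM over CaMKIIβ RIP, whereas Mog lay at 75.9 to 88.6 and 36.6 to 61.3 CPM. The 5 vascular markers summed to 108 to 110.2 CPM in Input and 182 to 203 CPM over both RIP groups, and 5 of 6 microglial markers to 69.5 to 70.6 and 79.95 to 115 CPM. Of the microglial markers, Csf1r was at 36.7 to 37.5 CPM in Input and 54.9 to 75.7 CPM over both RIP groups. In contrast, P2ry12 was at 13.3 to 15.6 and 5.69 to 11.5 CPM, and C1qa, Tmem119 and Aif1 each overlapped Input in at least 1 RIP group. The 5 general neuronal markers summed to 3266 to 3365 CPM in Input, 3125 to 3295 CPM in IgG RIP and 2715 to 3288 CPM in CaMKIIβ RIP, and the 5 markers of inhibitory neurons to 797 to 819, 736 to 753 and 723 to 779 CPM. The neuronal sum held opposite differences: Rbfox3 was at 276 to 293 CPM in Input and 346 to 469 CPM over both RIP groups, and Syp and Eno2 were higher in RIP too, whereas Snap25 was at 1476 to 1537 CPM in Input and 803 to 1130.0 CPM over both RIP groups, and Syt1 was lower too. Inhibitory markers split as well: Gad1 was at 321 to 326 CPM in Input and 335 to 371 CPM over both RIP groups. Slc32a1 was higher in RIP too, whereas Gad2 was at 175 to 178 CPM in Input and 123 to 136 CPM over both RIP groups. Pvalb was lower too, and Sst overlapped Input. The 5 Purkinje cell markers summed to 3898 to 3904 CPM in Input, 6969 to 7414 CPM in IgG RIP and 6904 to 8012 CPM in CaMKIIβ RIP, of which Itpr1 alone made up 2499 to 2554, 5964 to 6539 and 5919 to 7065 CPM. In contrast, Calb1 was at 478.5 to 482 CPM in Input and 245 to 321 CPM over both RIP groups, and Car8 at 757 to 793 and 478 to 559 CPM. Pcp2 was above Input in IgG RIP alone, and Ppp1r17 overlapped Input in both RIP groups. No marker was at 0 in any library, and the part of these cell types in the values of the 7 genes was not tested.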

How the data were processed

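Raw counts of 8 libraries were read from the deposited table, and 0 of its columns stayed unmapped. Per the submitters' processing notes, the authors' tools were featureCounts 2.0.1, STAR 2.7.3a, cutadapt 2.10 and Trim Galore 0.6.4, with GRCm38.p6. Symbols came from RefSeq genes of GRCm38.p6 that shared at least 0.5 of the joint span; 34132 of 55401 genes, with 96.1% of counts, were named.

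With edgeR 4.0.16 (R 4.3.3), a fit of the 2 groups concerned was made for each comparison (TMM, filterByExpr at 10 counts and a total of 15, robust quasi-likelihood F test). Benjamini-Hochberg adjustment ran over all genes tested, with a threshold of 0.05. Alternatives were library size, RLE, no filter, DESeq2 1.42.0, limma-voom (limma 3.58.1), all 8 libraries, a replicate block, removal of a loess trend on exon length (span 0.5) and each library left out. List counts without CaMKIIβ RIP replicate 2 or with other scaling were added after the data were seen.

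The members and lists were chosen with earlier results of these data known. All 7 members are named, and from each list at most the 2 highest and 2 lowest called genes of a comparison, or, where none was called, the 2 with the smallest p. For each member the 3 genes with the nearest pattern are named. A list gene that this rule would name is not reported here.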

Additional observations from a re-analysis of the deposited data

How the results depend on the processing

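In IgG RIP against Input all 7 genes were called under all 13 alternatives run, and in CaMKIIβ RIP against IgG RIP 0 of 7 were called under all 14. In CaMKIIβ RIP against Input, 3 of 7 became 6 with no filter, 6 with all 8 libraries in the fit, 6 with the replicate block and 7 with DESeq2, and ranged from 0 to 7 with single libraries left out. Of 91 fold changes in that comparison, 68 kept their side of the threshold, 19 passed it newly and 4 lost it, and none of the fold changes against Input changed sign in either comparison. Of 98 in CaMKIIβ RIP against IgG RIP, where none was called, 12 changed sign: Map1a was at 0.0019 with RLE, 0.0011 with DESeq2 and 0.067 with the exon length trend removed, against -0.0024, and Map4 at -0.00029 with all 8 libraries, against 0.011. The median of all genes moved by 0.0044 with RLE and by 0.16 with that trend removed. It moved by -0.019 with all 8 libraries and by -0.063 with DESeq2, which was run without the filter. With single libraries left out, Map1a ranged from -0.049 to 0.057, Map4 from -0.058 to 0.0999, Map6 from -0.017 to 0.149 and Mapt from -0.115 to 0.235. The cause was not tested. Deviations of same-numbered libraries from their group means correlated at -0.048 to 0.062. In groups this small the deviations are tied to each other, so these values cannot show whether equal numbers share an animal. The replicate block changed no call of the 7 genes in the other comparisons, while over all genes it called 8931 in IgG RIP against Input. Over all genes, CaMKIIβ RIP against Input called 1868 genes, against 2866 with no filter, 3573 with DESeq2, 3833 with all 8 libraries, 4205 with the replicate block, 0 without CaMKIIβ RIP replicate 1, 4089 when replicate 2 of that group was left out, 845 without Input replicate 1 and 400 without Input replicate 2. IgG RIP against Input called 8653, against 3676 with all 8 libraries and 5659 without Input replicate 2. With library size alone, 8 of 21 levels per kilobase moved by more than 1 SD, namely all 7 in Input and Map4 in IgG RIP. The order of the levels was kept in 3 of 3 groups. A scaling factor changes all genes of a library alike, so it cannot change the order within a library, and the kept order is no check. The ratios kept their direction in each RIP group alone and without CaMKIIβ RIP replicate 2. With 2 Input libraries, no exact test of a ratio could fall below 0.0357.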
